A study of Drosophila melanogaster with 2 samples.

Results

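Aminoacyl-tRNA synthetases join each amino acid to its transfer RNA, and so set which residue a codon is read as. They fall into classes I and II, which differ in the fold of the catalytic core. Animal cells charge tRNAs in the cytoplasm and in the mitochondrion, in most cases with enzymes from separate nuclear genes, and several cytoplasmic synthetases are held together in the multisynthetase complex. The genes described here are the 35 protein-coding genes of the BDGP6 annotation, of 13945 on the chromosome arms and chromosome 4, whose symbol is an amino acid name followed by RS, with or without the ending -m, together with GluProRS and the PheRS subunit genes. Without the ending there were 20 genes, called cytoplasmic here, and with it 15, called mitochondrial. The symbols do not mark enzymes that serve both compartments. No -m gene matched for glycine, histidine, lysine or threonine, and in humans the glycyl and lysyl enzymes of both compartments come from 1 gene each. None matched for glutamine either, but the mitochondrial amidotransferase described below makes glutaminyl-tRNA from glutamyl-tRNA.

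Chromatin immunoprecipitation and sequencing (ChIP-seq) mapped the binding of CG1620, a Drosophila melanogaster protein, in adult females of unknown age that were used whole. All flies came from a single transgenic line that stably expressed CG1620 with GFP at its C-terminus, and an anti-GFP antibody was used for the precipitation. There was 1 group of 2 biological replicates, numbered 2 and 3 in the labels, with no untagged or second condition among the lists used here. Chromatin from all tissues of the fly was mixed, so a site bound in few cells and a site bound weakly in many cannot be told apart. The authors' pooled list held 30000 candidate peaks on dm6, and their optimal IDR set, thresholded by IDR, a measure of the reproducibility of ranks, held 3894. These were the 3894 strongest of the pooled list, so membership does not show that a given peak kept its rank in both replicates. The value of a peak is the authors' signal value, a score from their peak calling, which ran in the pooled list from 2347 down to 18.9 and in the IDR set down to 70.0. It is not scaled between lists, so replicates are set side by side by rank. Sequencing depth is unknown. A gene was counted as having a promoter peak when a summit lay within 500 bp of any of its annotated transcription start sites (TSSs).

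Promoter IDR peaks lay at 14 of the 35 synthetase genes, or 40.0% (95% exact binomial interval 23.9 to 57.9%), against 26.3% of all protein-coding genes. Cytoplasmic enzymes had 11 of 20, or 55.0% (31.5 to 76.9%), and mitochondrial enzymes 3 of 15, or 20% (4.33 to 48.1%). The intervals of the compartments overlap, cover counting error over genes only, and no test was made over genes, which are not replicates of a condition. The 11 cytoplasmic genes were AlaRS, ArgRS, AsnRS, AspRS, GluProRS, IleRS, SerRS, ThrRS, ValRS, alpha-PheRS and beta-PheRS. The mitochondrial genes were ArgRS-m, LeuRS-m and PheRS-m. AsnRS had 2 peaks, which makes 15 in all.

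The sequences at the summits of 8 of these peaks are given here, each on the strand of the synthetase. These 8 were picked for the traits named below, so they do not show how alike or unlike the 15 windows are. They are from the RefSeq release 6 assembly, which shares its coordinates with dm6, and run 50 bp to either side of the summit, shortened for AlaRS to hold at most 30 annotated exon bases. Those exon bases lie upstream of AlaRS and belong to another annotated gene. Capitals mark matches on either strand to the motifs searched, which are named below. AsnRS and GluProRS are the strongest, beta-PheRS and AlaRS have no coding gene opposite, IleRS and LeuRS-m hold motifs that no other of the 15 windows held, and ArgRS with ArgRS-m is an amino acid for which both genes were bound. The windows are chr2L:19132001-19132101 (minus strand) for AsnRS, chr3R:23958448-23958548 (minus) for GluProRS, chr3R:24252660-24252760 (minus) for beta-PheRS, chr2L:8381774-8381850 (minus) for AlaRS, chr3L:22288517-22288617 (plus) for IleRS, chr3L:4825760-4825860 (plus) for LeuRS-m, chrX:15844237-15844337 (minus) for ArgRS and chr3R:7886943-7887043 (plus) for ArgRS-m.
AsnRS: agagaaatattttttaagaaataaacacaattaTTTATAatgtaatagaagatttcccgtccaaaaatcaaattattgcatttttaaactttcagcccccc
GluProRS: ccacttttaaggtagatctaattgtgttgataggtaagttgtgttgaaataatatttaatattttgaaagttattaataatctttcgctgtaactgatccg
beta-PheRS: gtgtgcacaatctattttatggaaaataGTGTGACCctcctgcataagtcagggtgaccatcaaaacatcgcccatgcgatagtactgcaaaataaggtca
AlaRS: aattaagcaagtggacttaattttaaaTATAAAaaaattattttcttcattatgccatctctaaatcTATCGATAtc
IleRS: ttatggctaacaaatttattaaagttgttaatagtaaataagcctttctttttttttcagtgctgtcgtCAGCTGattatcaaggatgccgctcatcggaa
LeuRS-m: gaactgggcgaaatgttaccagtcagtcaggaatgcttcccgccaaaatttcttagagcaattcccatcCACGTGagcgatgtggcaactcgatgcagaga
ArgRS: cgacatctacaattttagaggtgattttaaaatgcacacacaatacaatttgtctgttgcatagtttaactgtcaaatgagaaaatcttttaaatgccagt
ArgRS-m: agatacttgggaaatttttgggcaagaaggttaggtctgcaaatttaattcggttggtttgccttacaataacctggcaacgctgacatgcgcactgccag

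Of the motifs searched on both strands within 50 bp of the summits, TATAAA, the TATA-box core, was in 6 of the 15 synthetase windows, against 15.2% of the windows of all 2883 IDR peaks at coding promoters. These were the windows of AlaRS, AsnRS, AspRS, SerRS, ThrRS and alpha-PheRS, all cytoplasmic, as were 12 of the 15 windows searched. The synthetase windows were also poorer in G and C, with a median of 29.7% against 39.6%, and the part of base composition in the count of an A- and T-rich word was not tested. GGTCACAC, the core of the Drosophila promoter element called Motif 1, was in the beta-PheRS and ValRS windows (3.78% of all), TATCGATA, the DNA replication-related element (DRE), in that of AlaRS (5.93%), CACGTG, the palindromic E-box, in that of LeuRS-m (1.35%), and CAGCTG in that of IleRS (7.91%). Within 100 bp of the summit the DRE was in 4 windows, those of AlaRS, AsnRS, IleRS and PheRS-m, against 10.8% of all, TATAAA was in 8 against 30.2%, and CAGCTG was in 4 against 15.6%. The gap in G and C was smaller at that width, with medians of 32.8% and 38.3%. No synthetase window held AACCCCC (0.694% of all), GAGAGAG (1.63%), CGCATGCG (0.104%) or TGATGNAAT, the composite element of the amino acid stress factor ATF4 (0.243%). A match is a run of letters and not a measured site.

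The strongest synthetase peaks were at AsnRS and GluProRS. AsnRS, which charges asparagine, had a pooled signal of 288.6 and ranked 351 of 3894, with rank 339 in replicate 2 (signal 210.9) and 419 in replicate 3 (signal 76.2). GluProRS encodes the fused enzyme for glutamate and proline, and had a pooled signal of 285.5 at rank 367, with rank 488 in replicate 2 (signal 183.3) and 175 in replicate 3 (signal 108.1). The order of these genes differed between the replicates. The median signal of the 15 peaks, 158.3, compares with 119.6 over all coding promoter peaks. Of the 15, 11 were among the 1947 strongest IDR peaks. At that level 9 of 20 cytoplasmic genes (45%) and 2 of 15 mitochondrial genes (13.3%) had a peak, against 15.7% of all coding genes. The 15.7% is not split by whether another gene starts close by on the other strand, which is described below for all IDR peaks.

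SerRS, the seryl enzyme, followed with a signal of 227.2 at rank 607 and ranks of 606 and 833 in replicates 2 and 3. The peaks of AspRS (signal 184.2, rank 897) and beta-PheRS (179.9, rank 931) were next, at ranks of 886 and 928 in replicate 2 and of 1220 and 1060 in replicate 3. Each of these ranked lower in replicate 3 than in replicate 2. The cytoplasmic phenylalanyl enzyme is built of alpha and beta subunits, and the alpha-PheRS peak was weaker, with a signal of 107.1 at rank 2176 and ranks of 2216 and 2330 in the replicates. Its mitochondrial counterpart PheRS-m, a single-chain enzyme, had the strongest mitochondrial peak, with a signal of 176.9 at rank 960 and ranks of 1047 and 956. Each of the phenylalanyl genes therefore had a promoter peak.

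ArgRS (signal 167.5, rank 1058), ThrRS (158.3, rank 1164), ValRS (133.3, rank 1563) and IleRS (128.7, rank 1651) formed the middle of the list, with ranks from 1088 to 1832 in replicate 2 and from 1123 to 2136 in replicate 3. ValRS and IleRS changed places between replicates, at 1455 and 1832 in replicate 2 and at 2136 and 1388 in replicate 3. LeuRS-m (120.1, rank 1815) and ArgRS-m (111.8, rank 2032) ranked higher in replicate 3, at 1395 and 1714, than in replicate 2, at 2071 and 2694. AlaRS, the alanyl enzyme, had the weakest peak for a gene with 1 peak (101.9, rank 2347), and its rank of 3692 in replicate 3 was the lowest of the 15. The further AsnRS peak had a signal of 96.0 at rank 2572, and ranked 2312 and 1424 in replicates 2 and 3.

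In dm6 coordinates AsnRS spans chr2L:19129469-19131954 and GluProRS chr3R:23952136-23958391, both on the minus strand. PheRS-m spans chr2R:13968308-13969902 and LeuRS-m chr3L:4825853-4829038, both on the plus strand, and every synthetase summit but that of SerRS lay upstream of the annotated TSS it was counted for.

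**Figure D1:**
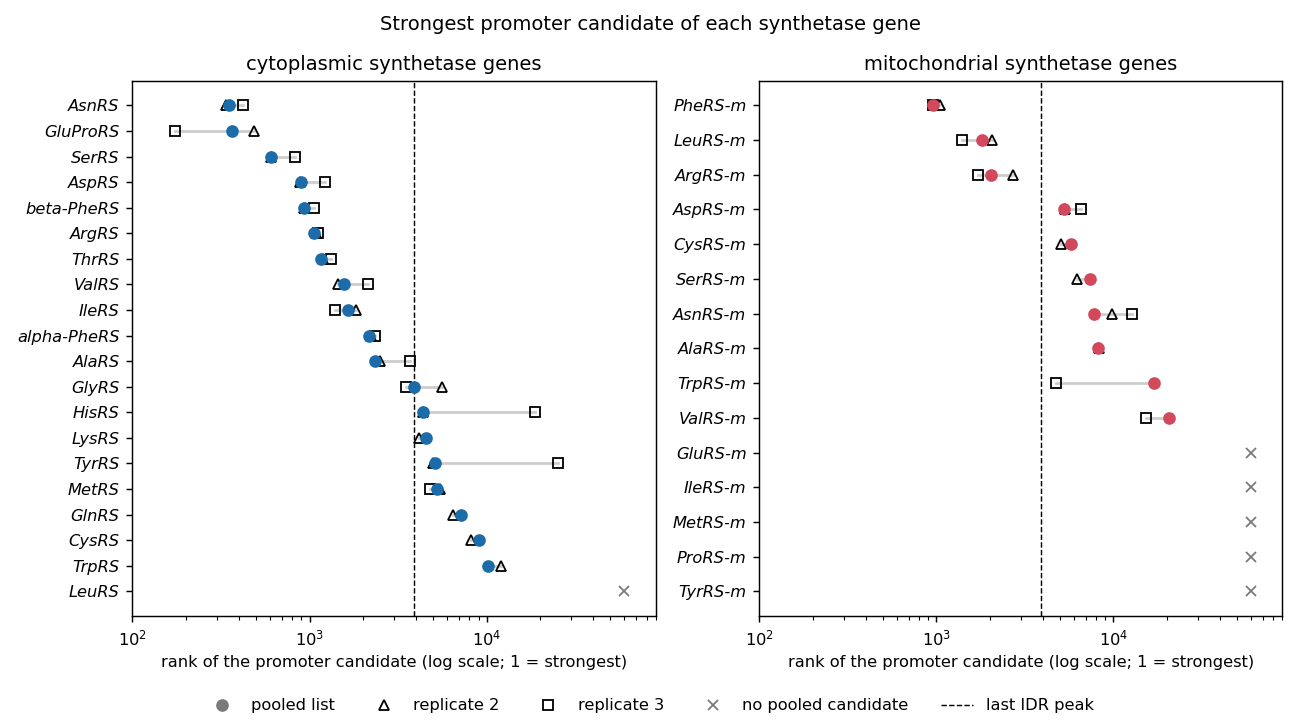
Rank of the strongest promoter candidate of each synthetase gene (x axis, log scale, 1 is the strongest; y axis, genes in order of pooled rank), for cytoplasmic genes at left and mitochondrial genes at right. Filled points are the pooled list, open triangles replicate 2, open squares replicate 3, crosses genes with no pooled candidate, and the dashed line the last of the 3894 IDR peaks; 11 cytoplasmic and 3 mitochondrial genes lie to its left.

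Set out by amino acid, for arginine and phenylalanine, genes of both compartments had an IDR peak. For 8 amino acids (alanine, asparagine, aspartate, glutamate, isoleucine, proline, serine and valine) the cytoplasmic gene had a peak and the mitochondrial gene did not. Leucine was the only amino acid with a peak at the mitochondrial gene alone. LeuRS, the cytoplasmic leucyl enzyme, had no pooled candidate at its promoter, and LeuRS-m had the peak at 120.1. For cysteine, methionine, tryptophan and tyrosine neither gene had a peak. Of the 5 amino acids with no -m gene by symbol, threonine had a peak and the other 4 did not. GluProRS counts here for both glutamate and proline.

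**Figure D2:**
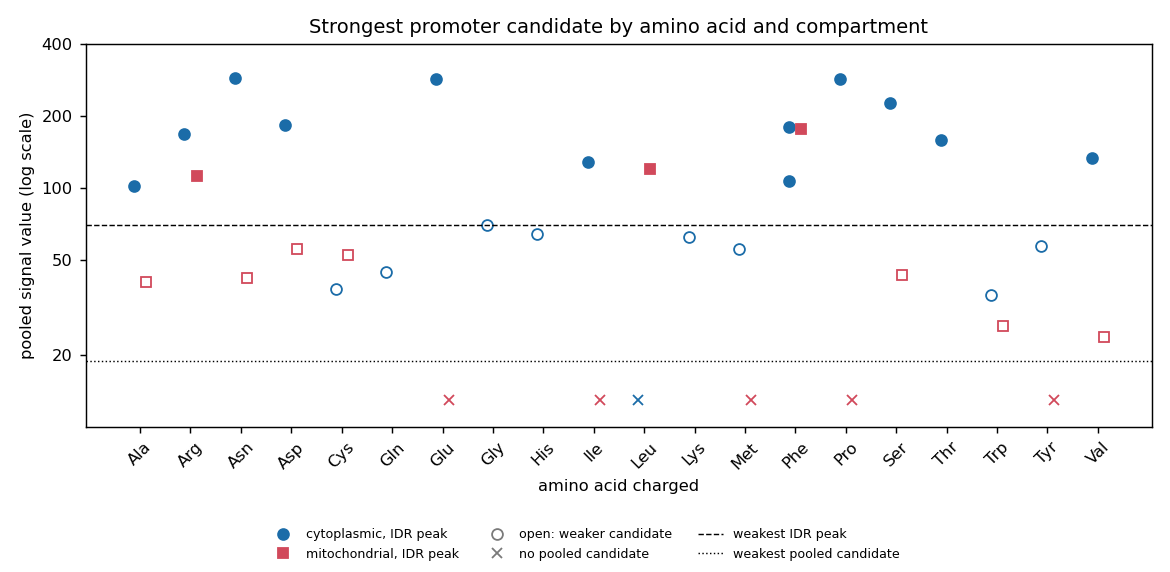
Pooled signal value (y axis, log scale) of the strongest promoter candidate of each synthetase gene by the amino acid charged (x axis); circles are cytoplasmic and squares mitochondrial genes, filled for IDR peaks and open for weaker candidates. Crosses at the bottom are genes with no pooled candidate, the dashed line is the weakest IDR peak at 70.0 and the dotted line the weakest pooled candidate at 18.9; GluProRS is drawn for both glutamate and proline.

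By enzyme class, cytoplasmic genes of class II had 7 peaks of 10 (70.0%, interval 34.8 to 93.3%) and those of class I had 3 of 9 (33.3%, 7.49 to 70.1%), with GluProRS, which spans both classes, left out of either count. The class I genes with a peak were ArgRS, IleRS and ValRS. Among mitochondrial genes the counts were 2 of 9 in class I and 1 of 6 in class II. The 8 genes whose products sit in the multisynthetase complex, for arginine, aspartate, glutamate with proline, glutamine, isoleucine, leucine, lysine and methionine, had 4 peaks, at ArgRS, AspRS, GluProRS and IleRS. All 8 have a coding gene that starts close by on the other strand, and 48.4% of all coding genes of that kind had a peak, so this share was near its background. The share of all coding genes to set beside the class counts is 26.3%, or 48.4% with such a gene opposite and 13.7% without. Most cytoplasmic genes of both classes have one, 8 of 10 in class II and 8 of 9 in class I. Of those in class II, 5 of 8 had a peak (62.5%, interval 24.5 to 91.5%). Of those in class I, 3 of 8 had a peak (37.5%, 8.52 to 75.5%). Among mitochondrial genes, 4 of 9 in class I and 3 of 6 in class II have a gene opposite. With 6 to 10 genes in each of these classes, the intervals overlap.

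Most synthetase peaks lay between divergent genes. Another coding gene had a TSS within 500 bp of the summit in 12 of the 15 peaks, or 80.0%, against 42.2% of all IDR peaks at coding promoters. In 11 of these 12 the summit was upstream of both TSSs. The exception was SerRS, where the summit lay at 10 bp from the SerRS TSS and at -18 bp from that of CG17260, negative values being upstream in the direction of that gene. The genes opposite were DCTN6-p27, a dynactin subunit (AsnRS), AP-1sigma, a subunit of a clathrin adaptor (GluProRS), Hem, of the Wave regulatory complex (IleRS), Kdm4B, a histone demethylase (ValRS), Dhc64C, the cytoplasmic dynein heavy chain (LeuRS-m), Patsas, a palmitoyltransferase (ThrRS), Nmda1 (AspRS), and CG8578, CG17260, CG2129 and CG17816 (ArgRS, SerRS, alpha-PheRS and ArgRS-m). AlaRS, beta-PheRS and PheRS-m had no other coding TSS in the window, with summits at -60, -31 and -87 bp from their own. The 2 AsnRS peaks overlap and lie between the same TSSs, so that promoter is counted more than once among the 12 peaks.

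The summit was nearest to the TSS of the synthetase in 11 of the 15 peaks. At ValRS it lay at -492 bp from the synthetase and -21 bp from Kdm4B. The further AsnRS peak was at -298 bp from AsnRS and -71 bp from DCTN6-p27, and the alpha-PheRS peak at -125 bp against -112 bp from CG2129. The AspRS peak was counted through an internal TSS, at -296 bp, with Nmda1 at -190 bp. At the first TSS of AspRS, which starts 38 bp from that of Lfg on the other strand, the pooled list held only a candidate of signal 25.7 at rank 17791. Counting each summit for its nearest TSS alone left 8 cytoplasmic genes, without AspRS, ValRS and alpha-PheRS, and 3 mitochondrial genes, against 19.2% of coding genes.

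**Figure D3:**
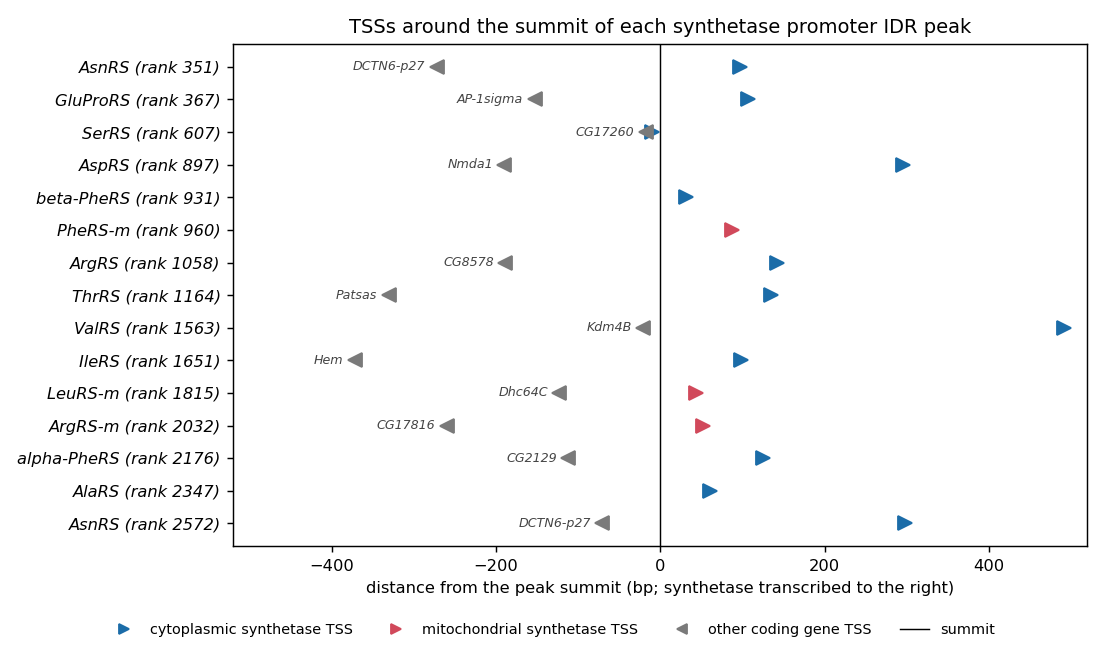
Distance in bp from the summit of each of the 15 synthetase promoter IDR peaks (x axis, summit at 0, synthetase transcribed to the right) to the TSS of the synthetase (blue, cytoplasmic; red, mitochondrial) and to that of the coding gene opposite (grey), in order of pooled rank from the top. In 11 of the 12 peaks with a gene opposite, the summit lies between the TSSs.

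Divergent promoters were common among cytoplasmic synthetase genes whether or not they had a peak. A coding gene on the other strand with a TSS at most 1000 bp upstream was annotated for 17 of 20 cytoplasmic genes (85.0%), for 7 of 15 mitochondrial genes (46.7%) and for 36.2% of all coding genes. Coding genes with such a partner had an IDR promoter peak in 48.4% of cases and those without in 13.7%. Cytoplasmic synthetase genes with a partner had 9 peaks of 17, or 52.9% (interval 27.8 to 77.0%), close to the 48.4% of all genes of that kind. Those without, AlaRS, beta-PheRS and CysRS, had 2 of 3. Mitochondrial genes had 2 of 7 with a partner (28.6%) and 1 of 8 without (12.5%). At the shares of all coding genes of each kind, 8.64 of 20 cytoplasmic and 4.48 of 15 mitochondrial genes would have a peak, beside the 11 and 3 counted. Cytoplasmic genes had both the higher share of peaks and the higher share of divergent promoters. Among genes with a partner, the cytoplasmic share was near the background. The shares of the compartments there were 52.9% and 28.6%, with overlapping intervals. The part of partners in the difference between compartments was not tested. This split by partner was chosen after the peaks of these genes had been seen.

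**Figure D4:**
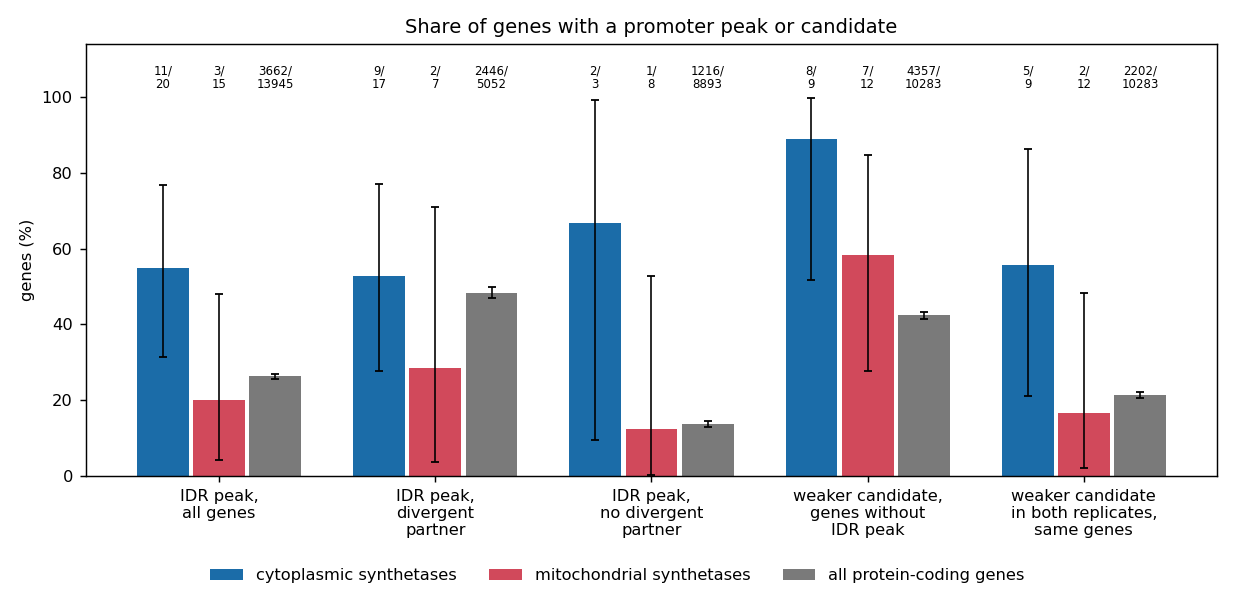
Share of genes in percent (y axis) with an IDR promoter peak, for all genes and for those with and without a divergent coding partner, and with a weaker candidate among genes without an IDR peak, for cytoplasmic (blue) and mitochondrial (red) synthetases and all protein-coding genes (grey). Error bars are 95% exact binomial intervals and the fractions above give counts; with a partner, the cytoplasmic bar (52.9%) stands near that of all genes (48.4%).

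Below the IDR set, weaker candidates filled in most cytoplasmic genes and fewer mitochondrial ones. Of the 9 cytoplasmic genes without an IDR peak, 8 had a weaker pooled candidate at the promoter (88.9%, interval 51.8 to 99.7%), and of the 12 mitochondrial genes 7 had one (58.3%, 27.7 to 84.8%), against 42.4% of coding genes without an IDR peak. With IDR peaks included, 19 of 20 cytoplasmic and 10 of 15 mitochondrial genes had some candidate, against 57.5% of coding genes. Requiring the weaker candidate to be overlapped by one in each replicate left 5 of 9 cytoplasmic genes (55.6%, 21.2 to 86.3%) and 2 of 12 mitochondrial genes (16.7%, 2.09 to 48.4%), against 21.4% of coding genes. The 5 were GlyRS, HisRS, LysRS, MetRS and TyrRS, and the 2 were AsnRS-m and AspRS-m. For LysRS the candidates found in both replicates were not its strongest one. The shares of coding genes in this paragraph are not split by divergent partner. Such a partner was annotated for 85.0% of cytoplasmic, 46.7% of mitochondrial and 36.2% of all coding genes. The part of partners in the counts of weaker candidates was not tested.

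GlyRS, the glycyl enzyme, was the nearest miss: its candidate had a signal of 69.9 at rank 3909, just outside the 3894 IDR peaks. Its rank was 5610 in replicate 2, with a signal of 41.4, and 3519 in replicate 3, with a signal of 19.7. The summit lay at -343 bp from GlyRS and nearer to the TSSs of Plp, which encodes a centrosomal protein, and sstn on the other strand. Taken from replicate 3 alone, the 3894 strongest candidates included it, which made 12 cytoplasmic genes. HisRS, the histidyl enzyme, had a candidate of 64.0 at rank 4369 that it shares with Bx, and this rested on replicate 2 (rank 4364), since in replicate 3 it ranked 18818. LysRS had a candidate of 62.1 (rank 4541) seen in replicate 2 alone, at rank 4150. TyrRS (57.0, rank 5091) ranked 5012 in replicate 2 and 25365 in replicate 3, and MetRS (55.8, rank 5240) ranked 5446 and 4790. Of these 5 genes, GlyRS and MetRS ranked higher in replicate 3 than in replicate 2. Coding genes with a TSS in the same window were Hecw (LysRS), CG33158 (TyrRS) and CG15084 (MetRS). The summit of the strongest candidate was nearer to each of these than to the synthetase. It lay at -10 bp from Hecw and -52 bp from LysRS. The values were -93 and -202 bp for CG33158 and TyrRS, and -80 and -165 bp for CG15084 and MetRS.

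The candidates of GlnRS (44.4), CysRS (37.9) and TrpRS (35.6) were found in replicate 2 and not in replicate 3. RIOK2 (GlnRS) and Vps16A (TrpRS) also had a TSS in the window, farther from these summits than that of the synthetase. LeuRS stood apart among cytoplasmic genes. It had no pooled candidate, only entries far down the single lists, at rank 27756 in replicate 2 and 14817 in replicate 3, at different places in its promoter, and its nearest IDR summit was 36157 bp away.

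Among mitochondrial genes the strongest weaker candidates were at AspRS-m (55.6, rank 5271), which ranked 5320 in replicate 2 and 6566 in replicate 3, and CysRS-m (52.2, rank 5738), which was found in replicate 2 alone, at rank 5032. SerRS-m (43.4) and AlaRS-m (40.5) were likewise found in replicate 2 alone. AsnRS-m (41.9) ranked 9815 in replicate 2 and 12765 in replicate 3. Its summit lay at -44 bp from AsnRS-m and -9 bp from ste24a on the other strand. The CysRS-m summit was likewise nearer to another coding gene, at -163 bp from CysRS-m and -5 bp from O-fut1. At AlaRS-m the summit lay at 359 bp, with Fitm at -394 bp. The strongest candidates of TrpRS-m (26.4, rank 16985) and ValRS-m (23.7, rank 20631), with summits 454 and 235 bp downstream of the TSS, were found in replicate 3 alone, at ranks 4765 and 15344. Each gene had a further candidate found in replicate 2 alone, with a pooled signal of 19.3 for TrpRS-m (rank 10863 in replicate 2) and 22.6 for ValRS-m (rank 21746). GluRS-m, IleRS-m, MetRS-m, ProRS-m and TyrRS-m had no pooled candidate. GluRS-m and TyrRS are neighbours in tandem on 3L, and the nearest IDR summits lay 4488 and 6613 bp from their TSSs. No IDR summit lay inside a synthetase gene other than those counted at promoters.

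Other genes of tRNA charging and maturation, from a list of 105 symbols of which 66 matched the annotation, had an IDR promoter peak in 33 cases, or 50% (interval 37.4 to 62.6%), against the 26.3% of coding genes given above. Of these 66 genes, 45 had a divergent partner, among them 27 of 34 tRNA modification and 14 of 24 tRNA processing genes. Among all coding genes 36.2% had a partner. A peak was found at 48.4% of coding genes with a partner and 13.7% of those without. The background for this list is therefore higher than 26.3%. Among the scaffolds of the multisynthetase complex, AIMP1 had a peak (99.4), AIMP3 a candidate at 31.3 and AIMP2 none. The mitochondrial amidotransferase makes glutaminyl-tRNA from glutamyl-tRNA, and its subunit genes GatA (177.3) and GatC (77.2) had peaks while GatB had a candidate at 30.5. Slimp, a paralog of the mitochondrial seryl enzyme, had a peak of 73.7 close to the weakest of the IDR set, and SerRS-m had none. Dtd, which removes D-amino acids from tRNA, had a candidate at 55.9.

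Among tRNA modification genes 17 of 34 had a peak. These included the Elongator genes Elp5 (721.5, rank 31), Elp6 (268.5) and Elp4 (196.7), while Elp2 and Elp3, the catalytic subunit, had candidates at 43.7 and 25.6 and were named after their values were seen. Both subunits of the tRNA m1A methyltransferase had a peak, Trmt61 at 253.3 and Trmt6 at 200.9, as did the tRNA thiolation partners Ctu1 (82.3) and Ctu2 (89.5). Tcs5, of the KEOPS complex, had the strongest of the list at 1321 (rank 4), while of the other Tcs genes Tcs4 had a candidate at 39.2, Tcs6 one at 23.8, and Tcs1 and Tcs3 had none, these being named after their values were seen. Dus2, a dihydrouridine synthase, had a peak of 342.6. Further peaks were at Mettl2 (217.2), Dus3 (206.2), Uba4 (122.7), wuho (116.3), Pus1 (104.1), RluA-1 (rank 2419) and Trmt112 (72.5). In tRNA processing 12 of 24 had a peak: the RNase P and MRP proteins Rpp14a (399.9), Rpp20 (291.1), Rpp14b (138.7), Rpp25 (78.5) and Pop5 (74.8), then Ranbp21 (205.7), La (180.6), which binds the ends of new tRNA transcripts, Ddx1 (152.9), RNaseZ (151.8), which cuts the tRNA 3′ trailer, the splicing endonuclease subunit Tsen15 (119.7), mldr (88.8) and scu (87.3). Counted for the nearest TSS alone, 18 of the 66 genes had a peak, against 19.2% of coding genes, which is a smaller excess than the one above.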

How the data were processed

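According to the deposited text files, the authors made 1 dm6 list of peaks and background per replicate, using its alignments and 1 further file, then a list from both replicates pooled and an optimal set thresholded by IDR. That further file is taken to be the control, because it is also a parent of the control-normalized signal tracks and not of the read-depth-normalized ones. Sources used here do not name the aligner, the peak caller, versions or the IDR threshold. The authors' deposited signal value of each peak is the caller's score, and the deposited summit offset is in bp from the start of the peak. The IDR set was the top of the pooled list. The weakest signals were 18.9 (pooled), 14.2 (replicate 2) and 6.69 (replicate 3). Lists of 30000 entries end in background, so a weak rank carries little. Precision of single values cannot be given, because the lists hold no read counts.

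Genes and TSSs were those of Ensembl release 115 without pseudogenes and transposable elements. Every dm6 peak lay within its RefSeq release 6 chromosome, and 99.5% of 30748 coding transcripts began with ATG there. A replicate candidate matched a pooled one when they overlapped by at least 50% of either, and the strongest was taken. Motifs were searched on both strands in 50 bp either side of a summit, and from 250 bp before to 50 bp after the TSS with most transcripts. Shares carry 95% Clopper-Pearson intervals (scipy 1.17.1), which cover counting error only. No p-value was computed, since there was 1 group of 2 replicates. Peak assignment was tested on simulated data. All 35 genes are named; related genes are named where they had an IDR promoter peak, except for a result that is not reported here, and those of the shorter lists in full. Sequences of AspRS, ValRS, PheRS-m, SerRS, ThrRS, alpha-PheRS and the further AsnRS peak are not shown. Alternatives were the TSS window (250 and 1000 bp), the 1947 strongest IDR peaks, each replicate alone, the most 5′ TSS, the nearest TSS and the motif window. The genes, lists and motifs were chosen with earlier results of these data known, AACCCCC because of them. The dm3 lists were not used here.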

Additional observations from a re-analysis of the deposited data

How the results depend on the processing

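Across a TSS window of 250 or 1000 bp, the 1947 strongest IDR peaks, the most 5′ TSS of each gene, the nearest TSS alone and each replicate alone, the synthetase genes with a promoter peak numbered 11 to 15, the cytoplasmic 8 to 12 and the mitochondrial 2 to 3. The share of all coding genes over these settings ran from 15.7%, among the 1947 strongest peaks, to 28.7%, in the 1000 bp window. Without replicate 2 or without replicate 3 the 14 genes kept their peaks, and GlyRS was added without replicate 2. The related genes fell from 33 to 21 among the 1947 strongest peaks and to 18 with the nearest TSS alone. The share of all coding genes fell as well, from 26.3% to 15.7% and to 19.2%. Genes with only a weaker candidate fell from 8 to 5 (cytoplasmic) and from 7 to 2 (mitochondrial) when a candidate in both replicates was required. Among all coding genes without an IDR peak the share fell from 42.4% to 21.4%. With each replicate alone the counts ranged from 5 to 9 and from 5 to 8, for which the share of coding genes is not given here. The median rank of the synthetase peaks, 1164, was 1329 in replicate 3. With a divergent partner within 500 bp, a limit chosen after the data were seen, 8 of 15 cytoplasmic and 2 of 7 mitochondrial genes had a peak, against 54.0% of coding genes. With 100 bp either side of the summit, 14 of 15 windows held some motif, against 10 with 50 bp. The share of all coding promoter windows with some motif is not given here, so these counts have no background. TATAAA alone was in 30.2% of all such windows with 100 bp and 15.2% with 50 bp. No p-value or comparison between conditions was possible with 1 group, and no untagged control was used here.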

Other observations

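Synthetase promoters held CAGCTG, a variant of the E-box that basic helix-loop-helix proteins bind, more often than coding promoters did, with or without a peak. In the window from 250 bp before to 50 bp after the TSS, on either strand, it was found at 17 of 35 synthetase genes (48.6%), against 17.8% of all coding genes. The count was 10 of 20 for cytoplasmic and 7 of 15 for mitochondrial genes. It was 7 of 14 for genes with an IDR promoter peak (50%) and 10 of 21 for those without (47.6%), against 23.1% and 15.9% of coding genes with and without one. Coding genes with a divergent partner held it in 21.9% of cases and those without in 15.4%, while synthetase genes with a partner held it in 13 of 24 and those without in 4 of 11. In 13 of the 17 genes a match lay within 100 bp of the TSS, and AlaRS-m had 3 matches, centred near -66, -60 and 30 bp. Among the related tRNA genes 21 of 66 held it (31.8%). The motif was on the list searched, but it was singled out after its counts were seen, and no test was made.

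The other motifs are set here beside their share of all coding promoters in the same window. The DRE was at 4 of 20 cytoplasmic genes (AlaRS, ArgRS, IleRS and TrpRS) and 1 of 15 mitochondrial genes (PheRS-m), against 9.24% of coding genes and 16.9% of those with an IDR peak. TATAAA was at 12 of 20 cytoplasmic and 7 of 15 mitochondrial genes, against 45.6%. GGTCACAC was at 2 cytoplasmic and 2 mitochondrial genes (7.79% of coding genes), and CACGTG at 1 of each (4.24%). GAGAGAG was at 1 mitochondrial gene (6.17%), and AACCCCC (1.59%) and CGCATGCG (0.667%) were at none. The ATF4 element TGATGNAAT was at none of the 35, against 1.19% of coding genes.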
